A study of Mus musculus with 18 samples.

Results

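CPA/9d-treated GL261(scid) tumors were compared with CPA/6d-treated GL261(scid) tumors across the genes of 1 deposited table. GL261 is a mouse glioma cell line, grown here under the skin of male ICR scid mice, whose defect in V(D)J recombination leaves them without mature T and B cells but with NK cells and myeloid cells. The groups were chosen by their labelled schedule, and they make up 4 of the 18 samples of the series. Both groups received 2 intraperitoneal injections of cyclophosphamide (CPA) at 140 mg/kg body weight, 6 days apart (CPA/6d) or 9 days apart (CPA/9d), and tumors were taken 6 days after the second injection. Collection therefore fell 12 days after the first injection on the CPA/6d schedule and 15 days after it on the CPA/9d schedule, so the interval and the time since the first injection cannot be told apart. The labels give the mice as 12 weeks old. RNA of 9 tumors was pooled for each CPA/6d library and of 12 tumors for each CPA/9d library, with 2 pools per schedule. Untreated GL261(scid) tumors, also 2 pools, of 6 tumors each, give the level without drug. The p-values measure the spread between pools of tumors, not between single animals.

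CPA is a prodrug that is oxidized in the liver and breaks down to a mustard that crosslinks DNA. On a metronomic schedule it is given repeatedly with short breaks, and in this glioma model such treatment draws NK cells and macrophages into the tumor. The comparison asks which transcripts separate the schedules 6 days after the second injection. In bulk tumor RNA a lower level can mean fewer cells of a type or less RNA per cell, and these cannot be told apart.

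The deposited table lists the mean normalized reads of each group, from which the whole reads of each pool were recovered. The 4 pools held 7875403 to 14951239 reads over 23284 genes. Levels below are normalized reads, that is reads divided by the effective library size and brought to the mean depth of the pools, and a pair of values gives first the pool with more reads in all and then the pool with fewer. The spread between the pools of one schedule was taken over genes with a mean of at least 50 normalized reads, 12304 in CPA/6d and 12401 in CPA/9d. Their median difference in log2 was 0.0846 for CPA/6d and 0.0958 for CPA/9d, where sampling noise alone would give 0.0632 and 0.0727. Genes with fewer reads were left out of this measure. A gene was called higher or lower when its log2 fold change, CPA/9d minus CPA/6d, went past a fold of 1.5 at an unadjusted p under 0.001 in limma. Markers of glial precursors, to which the GL261 label was checked, were read in every pool, 25009 and 26289 in sum in CPA/6d and 22047 and 21339 in CPA/9d. Of the lymphocytes that scid mice lack, T cell markers summed to 593 and 611 in CPA/6d and to 547 and 625 in CPA/9d, with 192.2 and 201.9 in untreated tumors. Their receptor gene Cd3e was at 0 in 3 of the 4 treated pools and at 0.913 in the other, while Lck, a kinase of T cells that NK cells also make, was at 170 and 181 and at 156 and 159. B cell markers summed to 125 and 112 and to 113 and 138, below the 166.0 and 170.7 of untreated tumors. Cd79b, a chain of the B cell receptor, went the other way. It was at 37.2 and 22.3 and at 33.8 and 71.5 against 0.769 and 0 in untreated tumors. None of the 8 T cell and 4 B cell markers tested was called, against 1.67% of all genes tested higher and 0.121% lower.

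One gene went against the labels. Xist, the X-linked RNA that is made from the inactive X chromosome of female cells (chrX:100655714-100678556, minus strand, NCBIM37), stood at 978 and 669 in the CPA/6d pools and at 37.4 and 49.1 in the CPA/9d pools, beside 24.6 and 39.7 in untreated tumors. Both CPA/6d pools were high, although the labels call all mice male. The difference was 18.4-fold (log2 fold change -4.21 ± 0.17 SE). The Y-linked genes did not separate the schedules at the threshold: Ddx3y, an RNA helicase, was at 494 and 487 in CPA/6d and at 504 and 549 in CPA/9d. Eif2s3y, a translation initiation factor, was at 382 and 350 against 449 and 430. The log2 fold changes of Kdm5d and Uty, both histone demethylases, were 0.16 ± 0.13 and 0.32 ± 0.12. Of the 5 X-inactivation and Y-linked genes tested 4 were above 0, and the 1 below was Xist. The study reads GL261 tumor cells as male from Xist, Ddx3y and Eif2s3y, so Y-linked reads can come from tumor as well as host cells. Since both CPA/6d pools carry the Xist RNA, no result can be given without it, and its part in the results that follow was not tested.

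Of 14898 genes tested, 249 were higher (1.67%) and 18 lower (0.121%) in CPA/9d than in CPA/6d tumors. These shares are the background for each count of called list members below. The median log2 fold change of all genes tested was -0.005, and 48.8% of them were above 0. Most genes were close on the 2 schedules: for 10905 genes, 73.2% of those tested, the 95% interval of the difference lay within 1.5-fold either way. Sorted by hand after the values had been seen, the 249 higher genes held 95 genes of skeletal muscle, 35 of extracellular matrix and mesenchymal secreted proteins, 24 of myeloid and other immune cells, 11 of drug oxidation and conjugation and 4 of the circadian clock, with 80 others. The 18 lower genes held 9 immune genes and no muscle, matrix or clock gene. With the untreated pools added to the fit, 103 genes were called higher and 19 lower. Beside most muscle genes and Retnla, described with their groups, the calls of Kera, Tnmd, Sfrp4, Dkk2, Mgl2, Clec1b, Clec14a, Irf4, Ear2, Klra8, Cd36, Cldn5, Cyp4b1, Fmo2, Gstt2, Fpr2, Lcn2 and Tnfsf18 were lost in that fit, at p from 0.00105 (Kera) to 0.0293 (Clec1b). Under voom, which weights genes by their reads, the calls of Mb, Actn2, Lmod2, Fmo2, Gstm1, Smpd3, Tnfsf18, Abcb1b and Elk4 were lost.

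**Figure D1:**
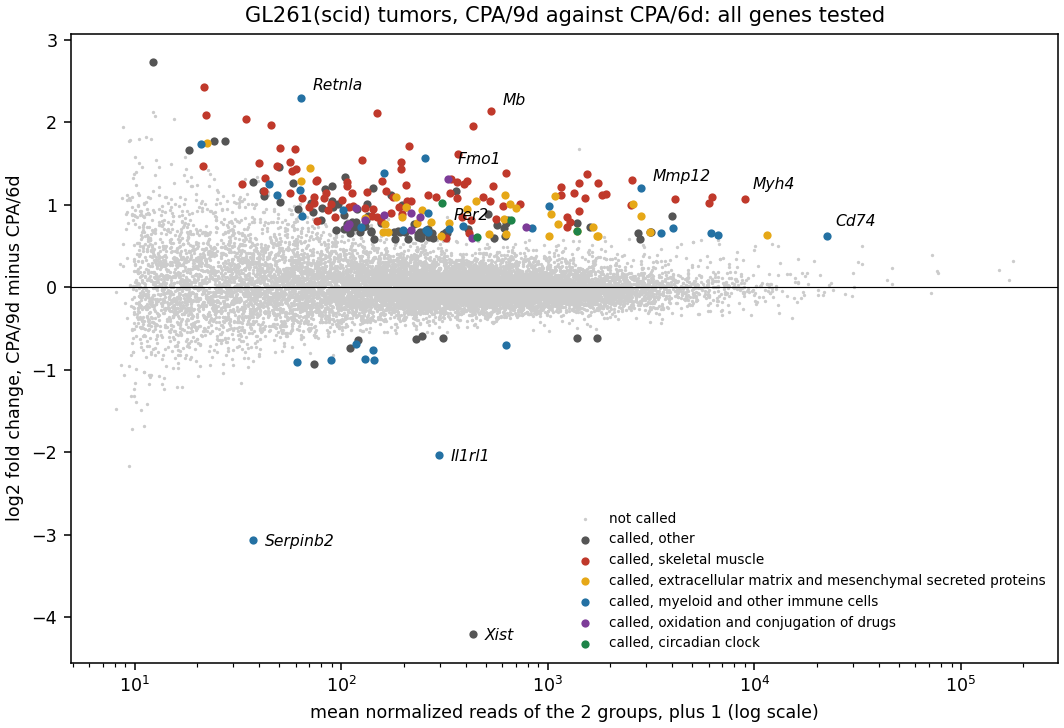
Log2 fold change, CPA/9d minus CPA/6d, against the mean normalized reads of both groups plus 1 (log scale) for the 14898 genes tested. Each point is a gene, and colored points are the 249 higher and 18 lower genes by hand-assigned class. The higher side holds many muscle genes (red) over the whole range of levels, and Xist, Serpinb2 and Il1rl1 lie far below the rest of the lower genes.

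Skeletal muscle gave the largest group of higher genes. Of 16 muscle markers tested, 15 were called higher and none lower, with a median log2 fold change of 1.21 beside -0.005 over all genes tested. The summed level of the 17 listed markers was 25414 and 27614 in CPA/6d tumors and 55234 and 61567 in CPA/9d tumors, against 991 and 3854 in untreated tumors. As a share of all reads these markers took 0.219% (95% Wilson interval 0.217 to 0.222) and 0.245% (0.242 to 0.248) of the CPA/6d pools and 0.477% (0.473 to 0.481) and 0.525% (0.520 to 0.530) of the CPA/9d pools. The untreated pools lay below those of both schedules. These intervals cover counting error only.

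The muscle genes are described in 2 sets, divided loosely, after their values were seen, by how close the pools of a schedule lay. In the first set, many of whose members belong to fast glycolytic fibers, the pools lay close. Tnnt3, fast skeletal troponin T (chr7:149684741-149701914, NCBIM37), stood at 1357 and 1622 in CPA/6d and at 3582 and 3700 in CPA/9d, against 36.9 and 224 in untreated tumors. The difference was 2.45-fold (log2 fold change 1.29 ± 0.08, limma adjusted p = 9.58e-07). The other subunits of the fast troponin complex moved alike: Tnnc2, its calcium sensor, went from 799 and 926 to 2335 and 2121. Tnni2, its inhibitory subunit, went from 678 and 724 to 1550 and 1692. Of the myosins, the fast IIB heavy chain Myh4 (chr11:67051314-67073948) was at 4895 and 6724 in CPA/6d and at 13195 and 11060 in CPA/9d. Its light chains Mylpf and Myl1 rose by 1.26 ± 0.08 and 1.12 ± 0.06 in log2. Calcium handling rose as well: Atp2a1, the fast calcium pump of the sarcoplasmic reticulum, had 3622 and 4312 in CPA/6d and 7572 and 9440 in CPA/9d. The calcium-binding proteins Pvalb and Casq1 rose by 1.26 ± 0.14 and 1.22 ± 0.10. Ckm, the cytosolic muscle creatine kinase, went from 2539 and 2786 to 5365 and 5790, a fold of 2.10. Acta1, skeletal alpha actin, rose by 1.02 ± 0.13 and Ttn, the giant spring protein titin, by 1.00 ± 0.09. Mylk4, a kinase of striated muscle, went from 186 and 173 to 475 and 636.

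**Figure D2:**
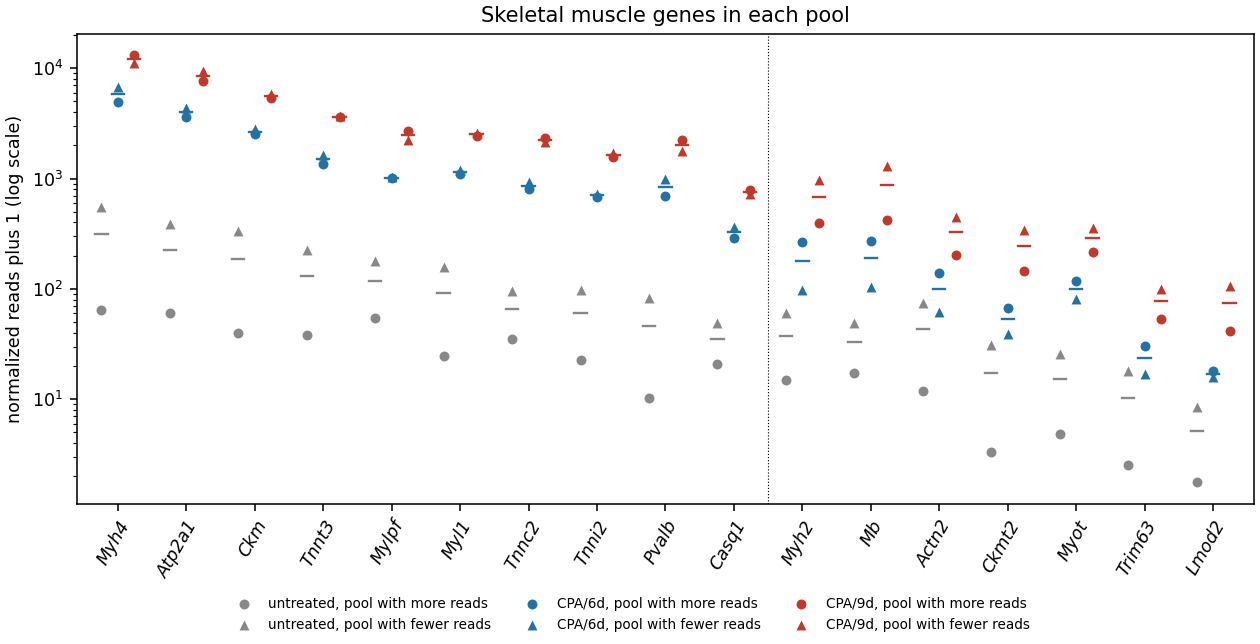
Normalized reads plus 1 (log scale) of 17 muscle genes in each of the 6 pools: untreated (grey), CPA/6d (blue) and CPA/9d (red), with circles for the pool with more reads, triangles for the pool with fewer, and a bar at the mean. For the genes left of the dotted line the pools of a schedule lie close together, as for Ckm at 5365 and 5790 in CPA/9d, while for those on the right they lie apart, as for Mb at 420 and 1310.

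In the second set the called genes were higher too, but the pools of many of them lay apart. Mb, the oxygen-binding protein myoglobin, was at 271 and 104 in the CPA/6d pools and at 420 and 1310 in the CPA/9d pools (log2 fold change 2.14 ± 0.43). Myh2, the IIA myosin heavy chain, was at 263 and 96.6 in CPA/6d and at 394 and 972 in CPA/9d (1.95 ± 0.39). Ckmt2, the mitochondrial creatine kinase of muscle, was at 66.6 and 38.2 and at 143 and 344 (2.12 ± 0.32). In each of these the CPA/9d pool with fewer reads was the highest and the CPA/6d pool with fewer reads the lowest. Myh1, the IIX myosin heavy chain of fast fibers and the one tested marker not called, had the same order at 1120 and 337 in CPA/6d and 1331 and 2893 in CPA/9d, and its log2 fold change of 1.67 ± 0.41 missed the p of the rule. The slow type I myosin Myh7 was at 0.775 and 0 in CPA/6d, and at 0.913 and 28.3 in CPA/9d. Of 12401 genes with a mean of at least 50 normalized reads in CPA/9d, 21 differed over 2-fold between its pools. Among them were Myh1, Mb, Myh2, Ckmt2, Actn2 and Lmod2, all 6 higher in the pool with fewer reads. Without that pool Lmod2, a thin filament protein of muscle, had a log2 fold change of 1.29 in place of 1.97 and lost its call. Myh8, the perinatal myosin heavy chain, was at 33.3 and 20.2 in CPA/6d and at 60.3 and 121 in CPA/9d. Trim63, a ubiquitin ligase of muscle wasting, was at 29.4 and 15.9 and at 52.0 and 99.8. Lmod3, Myo18b, Myot, Smpx and Clcn1 were also among the largest increases, with log2 fold changes up to 2.04. In CPA/9d the Myo18b pools, at 167 and 206, lay no further apart than those of Mylk4 in the first set. Clcn1, a chloride channel of muscle, had a p of 0.00234 without the CPA/6d pool with more reads. The regulators of muscle development had few reads: Myod1 stood at 3.10 and 3.18 in CPA/6d and at 2.74 and 10.4 in CPA/9d, and Pax7, which marks satellite cells, at 0 and 1.06 and at 0.913 and 0.

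The called members of the glycolysis list were muscle isoforms, 3 of 22 tested, with a list median of -0.02. They were Pfkm, the muscle phosphofructokinase (929 and 939 to 1500 and 1744), Pgam2, the muscle phosphoglycerate mutase (155 and 210 to 349 and 429), and Eno3, the muscle enolase (959 and 990 to 1782 and 1917). Des, the intermediate filament desmin, was the called member of 11 pericyte and smooth muscle markers tested, at 940 and 701 in CPA/6d and at 1332 and 2399 in CPA/9d. Desmin is a skeletal muscle protein too.

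The muscle calls depend on which libraries enter the fit. With the untreated pools in it, 1 of the 16 markers was called in place of 15, and the p of Ckm became 0.127 and that of Myh4 0.131. Those untreated pools differed widely in muscle genes, 38.4 and 334 for Ckm and 63.8 and 556 for Myh4. With muscle genes left out of the table, an alternative chosen after seeing the data, 176 genes were called higher and 19 lower. Whether muscle bordering the tumor was taken along with it in different amounts was not tested.

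The promoters of the muscle genes that moved together are shown for the letters they share. The motif CAGCTG, an E-box that muscle regulators bind, was found in 35 of the 80 promoter windows of called muscle genes (43.8%; 68 genes matched the RefSeq table) and in 16.2% of the 19041 windows of all genes in the deposited table. It reads the same on both strands. Each window runs from 250 bases before to 50 bases after a gene's start (RefSeq, GRCm38.p6), and capitals mark the motif. The windows are chr7:127211358-127211657 (plus strand) for Mylpf, the fast regulatory light chain, and chr7:19410844-19411143 (plus strand) for Ckm.
Mylpf: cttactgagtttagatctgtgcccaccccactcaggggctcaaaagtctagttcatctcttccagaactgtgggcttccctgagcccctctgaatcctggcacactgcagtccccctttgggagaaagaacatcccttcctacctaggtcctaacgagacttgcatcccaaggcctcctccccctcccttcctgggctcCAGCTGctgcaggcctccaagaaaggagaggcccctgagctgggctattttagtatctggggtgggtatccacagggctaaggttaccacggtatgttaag
Ckm: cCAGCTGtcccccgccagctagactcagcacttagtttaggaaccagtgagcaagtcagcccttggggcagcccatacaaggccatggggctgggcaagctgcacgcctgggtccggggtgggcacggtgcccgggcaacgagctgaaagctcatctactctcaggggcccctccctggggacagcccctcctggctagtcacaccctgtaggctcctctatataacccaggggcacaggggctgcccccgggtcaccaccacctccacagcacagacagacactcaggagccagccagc
A match of letters is a description and not a bound site.

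Fibroblast and tendon genes formed the next group of higher genes. Of 14 fibroblast markers tested, 5 were called higher and none lower, against 1.67% and 0.121% of all genes tested. Their median log2 fold change was 0.42. The called ones were secreted or surface proteins of resting connective tissue. Clec3b, the plasminogen-binding protein tetranectin, was at 795 and 583 in CPA/6d and at 1300 and 1660 in CPA/9d, a fold of 2.16. Pi16, which marks adventitial fibroblasts, was at 2257 and 1770 and at 3424 and 3884. Dpep1, a membrane dipeptidase, was at 346 and 245 and at 618 and 584. All 3 were lower in both untreated pools than in the treated ones. The small proteoglycan Dcn and the matrix protein Dpt rose by 0.63 ± 0.09 and 0.66 ± 0.10, and without the CPA/6d pool with fewer reads these became 0.51 and 0.45, under the fold of the rule (for Dcn also 0.51 without the CPA/9d pool with fewer reads). The fibrillar collagens of active fibroblasts, in contrast, were not called: the log2 fold change of Col1a1 was 0.09 ± 0.16 and that of Col3a1 0.32 ± 0.16.

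Tendon and corneal matrix genes rose beside them, named here after their values were seen. Tnmd, the tendon glycoprotein tenomodulin, was at 36.4 and 35.0 in CPA/6d and at 105 and 74.5 in CPA/9d. Kera, the proteoglycan keratocan, went from 44.2 and 30.8 to 96.8 and 107. Thbs4, a thrombospondin of tendon and muscle matrix, went from 469 and 322 to 919 and 767, and Fmod, the collagen-binding fibromodulin, from 470 and 399 to 893 and 846. All 4 were lower in the untreated pools. Of 19 Wnt ligands and secreted antagonists tested, 2 were higher and none lower, against 1.67% and 0.121% of all genes tested. Both were antagonists: Sfrp4 rose by 0.94 ± 0.10 and Dkk2 by 0.67 ± 0.15, the latter 0.48 without the CPA/6d pool with more reads.

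None of the 12 general macrophage markers tested was called, while single genes of macrophage activation were. Over all genes tested 1.67% were higher and 0.121% lower, and a list of 12 is too short to be set against that share. The median log2 fold change of the 12 markers was 0.07. Csf1r, the receptor for macrophage colony-stimulating factor, was at 4506 and 4510 in CPA/6d and at 4818 and 5266 in CPA/9d. Lyz2, myeloid lysozyme, was at 29170 and 25601 and at 38089 and 39300 (0.50 ± 0.09, below the fold of 1.5). Summed over the list, the level was 82498 and 76545 in CPA/6d and 91145 and 96336 in CPA/9d, against 10614 and 9660 in untreated tumors.

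Among 21 genes of alternative macrophage activation, the state induced by IL-4 and IL-13, 3 were higher and 1 lower, with a median of 0.32. Over all genes tested the shares were 1.67% higher and 0.121% lower. Retnla, the secreted resistin-like molecule alpha (chr16:48842665-48844574, NCBIM37), was at 24.8 and 17.0 in CPA/6d and at 112 and 96.8 in CPA/9d, 4.89-fold higher (log2 fold change 2.29 ± 0.24, limma adjusted p = 1.10e-04). The CPA/6d pools lay among the untreated values of 30.7 and 4.30. With the untreated pools in the fit its p was 0.00275 and it was not called. The galactose-binding lectin Clec10a was at 669 and 601 in CPA/6d and at 1031 and 1053 in CPA/9d. Its close relative Mgl2 was at 163 and 140 and at 226 and 264, and its log2 fold change of 0.69 ± 0.13 became 0.58 without either pool with fewer reads. Chi3l3, the chitinase-like protein Ym1 and a classical member of the same list, went the other way, from 119 and 110 to 61.2 and 62.5 (-0.88 ± 0.16). Without the CPA/6d pool with more reads its p was 0.00117, past the limit of the rule.

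Single genes of macrophage fusion and of matrix breakdown were higher. Tm7sf4, also known as DC-STAMP and needed for the fusion of macrophages to giant cells and osteoclasts, was at 24.01 and 26.5 in CPA/6d and at 62.1 and 61.1 in CPA/9d, 2.38-fold higher. Atp6v0d2, a subunit of the proton pump that acts in the same fusion, was at 740 and 621 and at 1245 and 1440. They were the 2 called members of 7 fusion and osteoclast genes tested, whose median was 0.40. The share called higher over all genes tested was 1.67%. Of 18 matrix metalloproteases and inhibitors tested, 2 were higher and none lower, with a median of -0.06 and 10 of them below 0. Mmp12, the elastase of macrophages, was at 1967 and 1485 in CPA/6d and at 3882 and 3952 in CPA/9d (2.29-fold), and Mmp27 rose by 0.78 ± 0.12. Pla2g2d, a secreted phospholipase of resident macrophages and dendritic cells, went from 157 and 103 to 358 and 398. Of 21 chemokines tested, 1 was called, the macrophage chemokine Ccl6, at 3452 and 2674 against 4627 and 5429, and its log2 fold change of 0.72 ± 0.10 was 0.54 without the CPA/6d pool with fewer reads.

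The C-type lectin list had 3 of 21 tested members higher and none lower, against 1.67% and 0.121% of all genes tested. Its median was 0.29. Clec7a, the fungal glucan receptor Dectin-1, was at 2777 and 2686 in CPA/6d and at 3953 and 4685 in CPA/9d. Its log2 fold change of 0.66 ± 0.08 was 0.53 without the CPA/9d pool with fewer reads. Clec1b, the platelet and myeloid receptor CLEC-2, was at 27.1 and 31.8 and at 54.8 and 77.4, and without the same pool its p was 0.00639. Clec14a is a protein of endothelium rather than of myeloid cells, and its 0.67 ± 0.14 became 0.51 without the CPA/6d pool with fewer reads and 0.49 without the CPA/9d pool with fewer reads. Clec1a was at 37.2 and 37.1 in CPA/6d and at 63.0 and 61.1 in CPA/9d, a log2 fold change of 0.72 ± 0.21 that missed the p of the rule.

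Of the genes of antigen presentation, 3 of MHC class II were higher. Cd74, the invariant chain that chaperones class II, was at 19271 and 16228 in CPA/6d and at 25025 and 29652 in CPA/9d. The class II chain H2-Aa was at 5729 and 4683 and at 7726 and 8412, and H2-Eb1 at 5246 and 4380 and at 7541 and 7516. Their log2 fold changes were 0.62 ± 0.10, 0.64 ± 0.09 and 0.65 ± 0.08, just past the fold of 1.5. They were the called members of 16 MHC genes tested, against 1.67% of all genes tested called higher, and the list median was 0.09. Without the CPA/6d pool with fewer reads none of the list was called, at 0.50, 0.49 and 0.52 for the same genes, and without the CPA/9d pool with fewer reads 1 was. Ciita, the transactivator of class II, was at 497 and 466 and at 645 and 654 (0.43 ± 0.07, not called).

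Single immune genes complete the higher set. C7, a late component of complement, was at 233 and 247 in CPA/6d and at 341 and 502 in CPA/9d, the called member of 19 complement genes tested, with 0.50 in place of 0.78 ± 0.14 when the CPA/9d pool with fewer reads was left out. Ear2, an eosinophil ribonuclease, was at 6.20 and 11.7 and at 30.1 and 31.3. It passed the filter on low reads only through the CPA/9d pools, where it was high, so its difference is a description. Irf4, a transcription factor of lymphoid and myeloid cells, was at 107 and 80.7 and at 158 and 150. Without the CPA/6d pool with more reads Ear2 had a p of 0.00276, and without the CPA/6d pool with fewer reads Irf4 stood at 0.52.

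**Figure D3:**
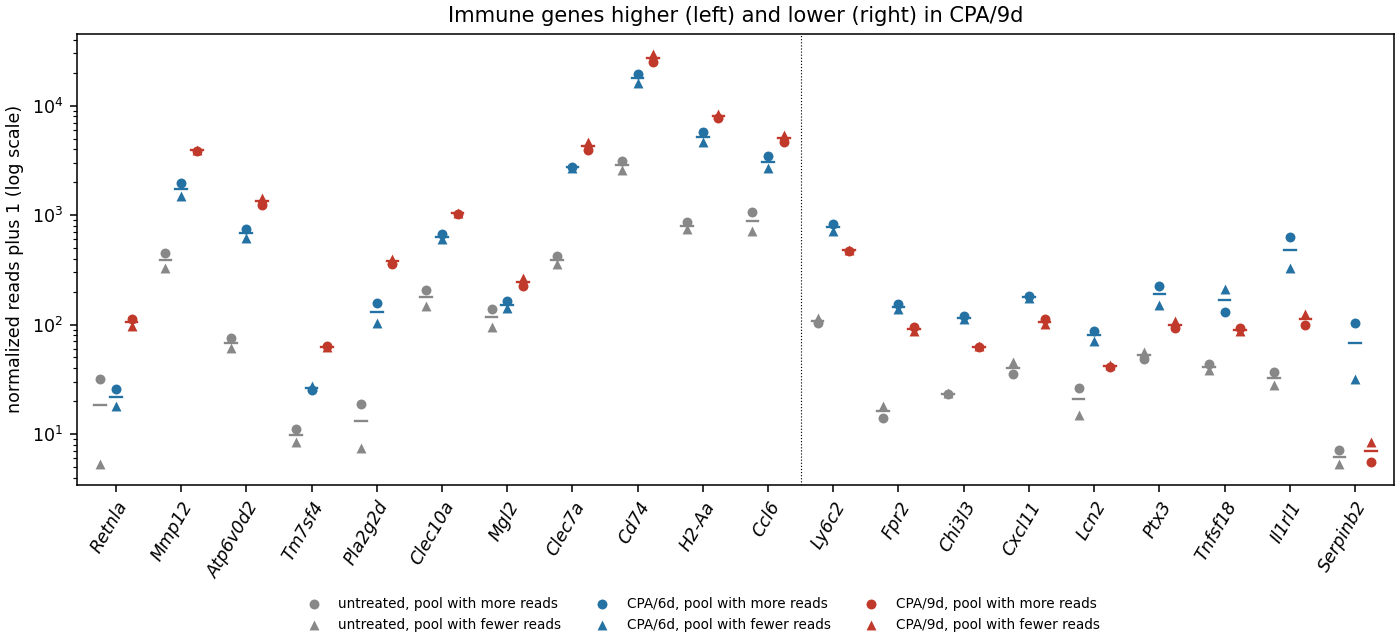
Normalized reads plus 1 (log scale) of 20 immune genes in each of the 6 pools, colored and marked by group and pool, with a bar at each group mean. Left of the dotted line are 11 genes higher in CPA/9d, such as Retnla at 112 and 96.8 against 24.8 and 17.0, and on the right 9 genes lower in CPA/9d, such as Ly6c2 at 473 and 481 against 830 and 722.

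The lower genes held inflammatory and monocyte products. Ly6c2, a surface protein of inflammatory monocytes, was at 830 and 722 in CPA/6d and at 473 and 481 in CPA/9d (log2 fold change -0.70 ± 0.08), with 102 and 113 in untreated tumors. Fpr2, a formyl peptide receptor of phagocytes, was at 152 and 138 and at 93.1 and 86.4. Cxcl11, an interferon-induced ligand of CXCR3, was at 183 and 174 and at 110 and 99.8 (-0.76 ± 0.13). For each of these the CPA/9d pools lay between the untreated and the CPA/6d pools. Of 5 genes of the CXCR3 axis tested, Cxcl11 was the only called one, and all 5 were below 0 with a median of -0.35. Cxcl10 had a log2 fold change of -0.51 ± 0.06 and Cxcl9 of -0.35 ± 0.07, both under the fold of the rule. Lcn2, the iron-carrier-binding lipocalin of neutrophils, was at 86.8 and 70.0 and at 40.2 and 41.7. It was the called member of 10 neutrophil markers tested, of which 4 were above 0 and 6 below. Their median was -0.29 and the highest 0.65. The 13 listed neutrophil markers summed to 1266 and 1017 in CPA/6d and to 1073 and 1050 in CPA/9d. Ptx3, a long pentraxin, was at 226 and 149 and at 92.2 and 106. Tnfsf18, the ligand of GITR, was at 129 and 208 and at 91.3 and 86.4.

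Il1rl1 and Serpinb2 showed the largest decreases after Xist. Serpinb2 passed the filter on low reads only through the CPA/6d pools, where it was high, so its difference is a description. Il1rl1, the receptor ST2 for interleukin 33 (chr1:40486415-40522260, NCBIM37), was at 625 and 330 in the CPA/6d pools, at 98.6 and 124 in the CPA/9d pools and at 36.1 and 26.8 in untreated tumors. It was 4.09-fold lower in CPA/9d (log2 fold change -2.03 ± 0.22, limma adjusted p = 1.34e-04). Its ligand Il33 differed little, at 1270 and 1163 and at 1096 and 1130 (-0.13 ± 0.07). Serpinb2, the plasminogen activator inhibitor 2 of macrophages and monocytes (chr1:109408000-109432055), was at 102 and 30.8 in CPA/6d and at 4.57 and 7.45 in CPA/9d, close to the untreated 6.15 and 4.30. In both genes the CPA/6d pool with more reads was the higher one, as it was for Xist. Of the other lower genes, Lipg, endothelial lipase, fell by 0.93 on the log2 scale and Abcb1b, a P-glycoprotein drug exporter, by 0.64. Crabp2, which carries retinoic acid, fell by 0.62, Clu, the chaperone clusterin, by 0.61, Pcsk1n, an inhibitor of a prohormone convertase, by 0.62 and Elk4, a transcription factor, by 0.59. Sox8, a glial transcription factor, was at 122 and 153 in CPA/6d, at 83.1 and 80.4 in CPA/9d and at 493 and 483 in untreated tumors.

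The lower side is sensitive to single pools. Without the CPA/9d pool with more reads 83 genes were called lower in place of 18, and without the CPA/9d pool with fewer reads 28, where in each case the one remaining pool was assumed to vary like the other group. Without the CPA/6d pool with more reads the p of Fpr2 was 0.00478, of Lcn2 0.0126, of Ptx3 0.00541, of Lipg 0.00154 and of Abcb1b 0.00857, none then called. Without the CPA/6d pool with fewer reads the p of Tnfsf18 was 0.0161 and that of Sox8 0.0112, while Clu stood at -0.51 and Pcsk1n at -0.55. Crabp2 stood at -0.57 and -0.55 without the CPA/6d pool with more reads and the CPA/9d pool with fewer reads. Without the CPA/9d pool with fewer reads Abcb1b stood at a p of 0.00327, and without the CPA/9d pool with more reads Clu stood at -0.54 and Pcsk1n at -0.54. Elk4 lay closest to the fold of the rule and was at -0.53 without the CPA/9d pool with fewer reads, at -0.58 under voom and at -0.57 with 10 added to the reads. Xist, Il1rl1, Ly6c2 and Cxcl11 were called whichever of the 4 pools was left out. Serpinb2 was called without either CPA/9d pool and did not pass the filter on low reads without either CPA/6d pool.

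NK cell and cytotoxic genes held few calls. These lists are too short to set apart from the 1.67% higher and 0.121% lower over all genes tested. Of 10 NK cell markers tested, 1 was higher, Klra8, and none lower, with a median of -0.11, and the summed level was 2627 and 3025 in CPA/6d and 2602 and 2512 in CPA/9d. Of 14 cytotoxic effectors tested, none was called, with a median of -0.19 and 11 of them below 0. Gzmb, granzyme B, was at 868 and 1122 in CPA/6d and at 735 and 646 in CPA/9d, against 13.8 and 14.0 in untreated tumors (-0.52 ± 0.10, not called, though called without the CPA/6d or the CPA/9d pool with more reads). Perforin, Prf1, was at 500 and 575 and at 443 and 412. Ncr1, the activating receptor NKp46, was at 156 and 151 and at 153 and 182. Among the Ly49 and NKR-P1 lectins, 1 of 17 tested was called, the activating receptor Klra8, at 34.9 and 40.3 against 93.1 and 78.9 (1.17 ± 0.20). Klra1, Klra3 and Klra10 had log2 fold changes of 1.34 ± 0.39, 0.81 ± 0.34 and 0.92 ± 0.36, none called, at 6.97 to 35.6 normalized reads. Ly49 genes are close copies whose reads may be split between them, so the value of a single one is uncertain.

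The lists of interferon-stimulated, proliferation and glial precursor genes held no called member, and most of their members were below 0. Cxcl11 and Sox8, described above as lower, are not on these lists. Over all genes tested 1.67% were called higher and 0.121% lower, and 48.8% lay above 0. All 26 type I interferon-stimulated genes tested were below 0, with a median of -0.19 and a range of -0.47 to -0.06. Rsad2, the antiviral protein viperin, was at 3842 and 4241 in CPA/6d and at 3021 and 2938 in CPA/9d (-0.44 ± 0.06). Of 32 proliferation genes 31 were below 0, with a median of -0.26, and Mki67, the antigen of cycling cells, was at 1949 and 2072 against 1732 and 1629. Of 13 glial precursor markers 12 were below 0, with a median of -0.23. Sox10, a transcription factor of the oligodendrocyte lineage, was at 4786 and 5034 and at 3907 and 3864, against 9594 and 10193 in untreated tumors. Of 23 interferon gamma-induced genes none was called (median -0.15), and of 25 p53 targets none (median 0.01).

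**Figure D4:**
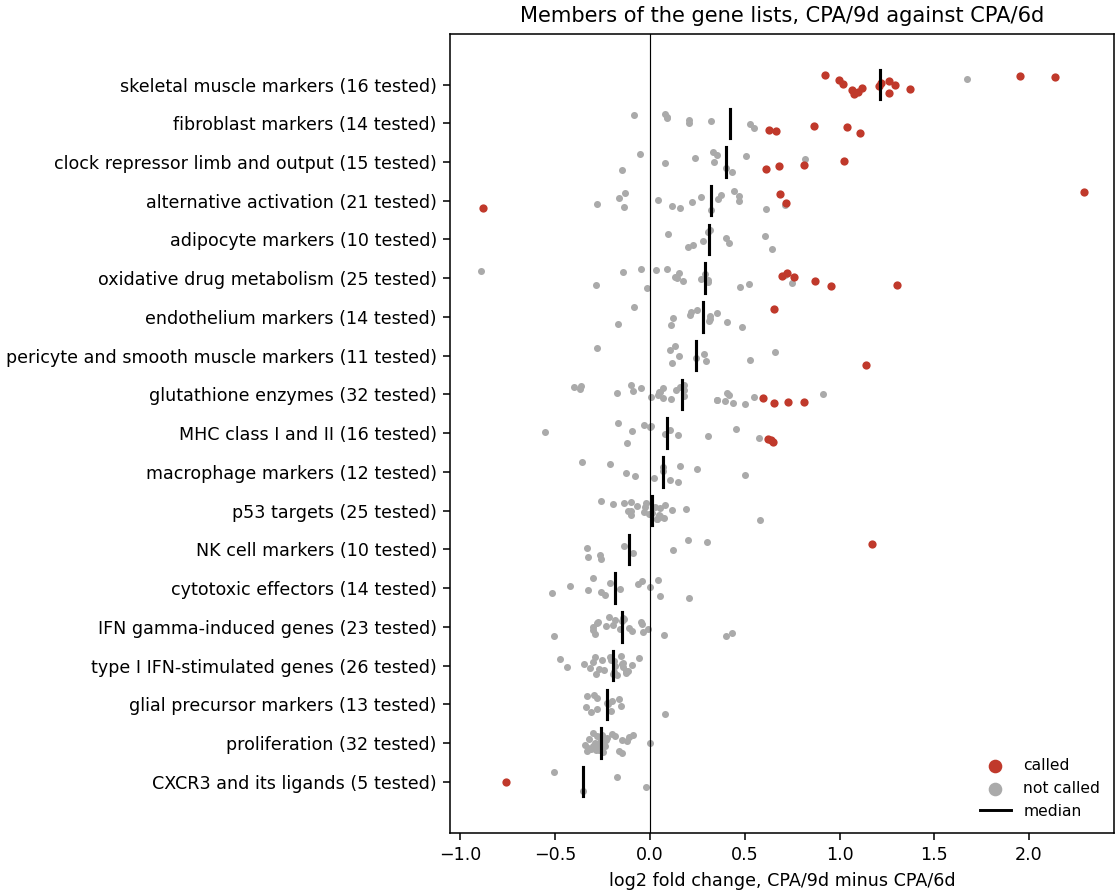
Log2 fold change, CPA/9d minus CPA/6d, of the tested members of 19 gene lists, with called members in red, others in grey and a black bar at the list median. The muscle markers lie apart at a median of 1.21, the fibroblast and clock lists follow at 0.42 and 0.40, and the interferon, glial and proliferation lists lie just below 0 with no called member.

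Some genes of the circadian clock were higher in CPA/9d. The circadian clock is a feedback loop in which CLOCK and BMAL1 (Arntl) switch on the Per, Cry and Nr1d genes through E-boxes, and the products of these switch the activators off again. The output factors Dbp, Tef and Hlf act on D-boxes. Of 15 genes of the repressor limb and output tested, 4 were higher and none lower, against 1.67% and 0.121% of all genes tested. Their median was 0.40. Per2 (chr1:93312561-93355907, minus strand, NCBIM37) was at 202 and 201 in CPA/6d and at 427 and 395 in CPA/9d, against 139 and 128 in untreated tumors. It was 2.03-fold higher (log2 fold change 1.02 ± 0.10, limma adjusted p = 4.30e-05). Per3 (chr4:150377761-150418774, minus strand) was at 471 and 490 in CPA/6d and at 847 and 840 in CPA/9d. Tef was at 1091 and 1028 and at 1603 and 1797, and Dbp at 378 and 334 and at 513 and 578. For all 4 the pools of a schedule lay close together. Dbp lay near the fold of the rule, at 0.61 ± 0.09, and became 0.53 without either pool with fewer reads.

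The other clock genes were not called. Hlf was at 37.2 and 48.8 in CPA/6d and at 77.6 and 74.5 in CPA/9d (0.82 ± 0.21), and Per1 at 1012 and 1043 and at 1327 and 1303 (0.36 ± 0.06). Nr1d2, Cry1, Cry2, Usp2, Gm129 and Bhlhe41 lay between 0.24 and 0.51 in log2. Nr1d1, the repressor REV-ERB alpha, stood apart from them at 1050 and 968 against 885 and 937 (-0.15 ± 0.07), and Wee1 and Bhlhe40 at -0.05 ± 0.08 and 0.08 ± 0.06. Of 5 genes of the activator limb tested none was called, with a median of -0.22. Arntl was at 195.97 and 242 in CPA/6d and at 150 and 146 in CPA/9d (-0.56 ± 0.13, short of the fold of 1.5, and called without the CPA/6d pool with more reads). Npas2 and Clock had -0.58 ± 0.23 and -0.22 ± 0.07, and Nfil3 -0.11 ± 0.08. The hour at which tumors were taken is not given in the sources used here.

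**Figure D5:**
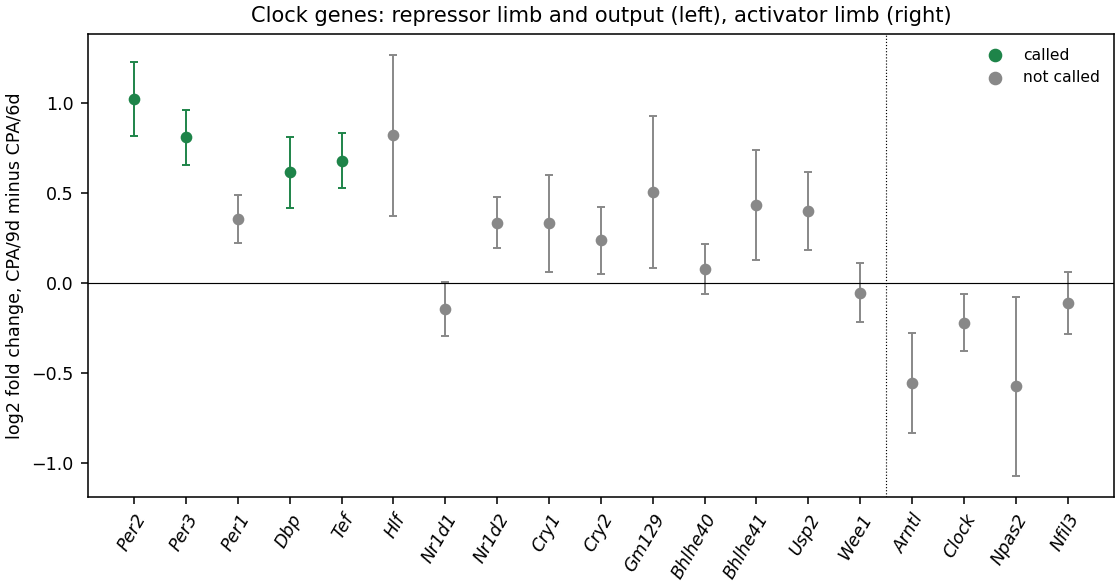
Log2 fold change, CPA/9d minus CPA/6d, of 19 clock genes, with bars for the 95% interval from limma (2 pools a schedule). The called genes Per2, Per3, Dbp and Tef (green) lie from 0.61 to 1.02, the others of the repressor limb and output mostly above 0, and Arntl, Clock and Npas2 of the activator limb below 0.

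The promoters of the called clock genes are shown where they hold a motif of the loop. Of the 4 genes, 3 had windows in the RefSeq table, 4 windows in all. The E-box CACGTG, which CLOCK and BMAL1 bind and which reads the same on both strands, was in 2 of the 4 windows, both of Tef. It was in 8.12% of the 19041 windows counted. The D-box, searched as TTANGTAA on both strands, was in the window of Per3 and in 2.16% of the windows counted. Neither motif was in the window of Dbp. The E-box is in capitals in the first of the Tef windows (chr15:81802423-81802722, plus strand), and the D-box in that of Per3 (chr4:151044616-151044915, minus strand), which holds it 2 times (both GRCm38.p6).
Tef: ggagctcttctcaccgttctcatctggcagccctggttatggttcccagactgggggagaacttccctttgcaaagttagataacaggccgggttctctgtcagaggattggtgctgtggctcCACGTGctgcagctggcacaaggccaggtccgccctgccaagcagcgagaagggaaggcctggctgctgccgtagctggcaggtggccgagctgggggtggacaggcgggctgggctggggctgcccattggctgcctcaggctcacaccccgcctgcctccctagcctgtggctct
Per3: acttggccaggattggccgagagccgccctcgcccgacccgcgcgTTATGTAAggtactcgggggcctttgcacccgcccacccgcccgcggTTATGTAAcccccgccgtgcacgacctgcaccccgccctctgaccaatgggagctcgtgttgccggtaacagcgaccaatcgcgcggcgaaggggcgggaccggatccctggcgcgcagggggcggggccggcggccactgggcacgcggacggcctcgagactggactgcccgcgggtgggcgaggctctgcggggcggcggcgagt
The Tef window also holds CAGCTG, left in lower case here. CACGTG and CAGCTG share their outer letters and cannot match the same bases.

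Some enzymes that oxidize or conjugate drugs were higher in CPA/9d. Of 25 genes of oxidative drug metabolism tested, 6 were higher and none lower, against 1.67% and 0.121% of all genes tested. Their median was 0.29. Fmo1, a flavin monooxygenase, was at 182.0 and 193.1 in CPA/6d and at 441 and 490 in CPA/9d, 2.47-fold higher, against 37.7 and 36.5 in untreated tumors. Fmo2 was at 69.7 and 86.0 and at 116.0 and 196.6, and without the CPA/9d pool with fewer reads its log2 fold change of 0.95 ± 0.21 was 0.58. The cytochromes P450 Cyp2f2, Cyp4b1 and Cyp2e1 rose by 0.87 ± 0.13, 0.76 ± 0.15 and 0.73 ± 0.09. Without the CPA/6d pool with fewer reads Cyp4b1 had a p of 0.00103, and without the CPA/9d pool with more reads Cyp2e1 stood at 0.57. Adh1, an alcohol dehydrogenase, was at 180 and 149 and at 261 and 271, with 0.56 in place of 0.70 ± 0.12 when the CPA/6d pool with fewer reads was left out. Albumin, Alb, a liver marker, was at 3074 and 2268 in CPA/6d, at 2887 and 3349 in CPA/9d and at 2822 and 2897 in untreated tumors.

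Among 16 aldehyde dehydrogenases tested, 1 was called: Aldh1a1, which oxidizes the active aldehyde of CPA to an inactive acid, went from 187 and 153 to 278 and 335 (0.85 ± 0.13). Of 32 glutathione enzymes tested, 4 were higher and none lower, against 1.67% and 0.121% of all genes tested. Their median was 0.17. The glutathione transferases Gstt1 and Gstt2 went from 92.2 and 95.5 to 175 and 156 and from 76.7 and 81.7 to 141 and 124. Gstm1 rose by 0.60 ± 0.09, which was 0.57 by total reads or without the CPA/6d pool with more reads, 0.58 under voom or with 10 added to the reads and 0.49 without the CPA/9d pool with fewer reads. Anpep, a membrane aminopeptidase, rose by 0.65 ± 0.07 and was at 0.54 without the CPA/6d pool with fewer reads. Gstt2 had a p of 0.00129 without the CPA/6d pool with more reads and of 0.00221 without the CPA/9d pool with more reads. Sult1a1, a phenol sulfotransferase, was at 149 and 152 and at 287 and 274. The members of these lists that rose did so beside the fibroblast and muscle markers above, and whether the same cells carry them was not tested.

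A few single genes complete the higher side. Smpd3, the neutral sphingomyelinase that releases ceramide, was at 22.5 and 26.5 in CPA/6d and at 46.6 and 67.0 in CPA/9d, while untreated tumors had 63.8 and 59.1. It was the called member of 11 sphingolipid genes tested, at 1.16 ± 0.26, with a p of 0.00149 without the CPA/6d pool with more reads and of 0.00945 without the CPA/9d pool with fewer. Cdkn1c, an imprinted inhibitor of cyclin-dependent kinases, was at 123 and 96.6 and at 231 and 243. Lpl, lipoprotein lipase, went from 2958 and 2718 to 5401 and 4890, and the fatty acid transporter Cd36 from 1034 and 1006 to 1844 and 1645, the called members of 18 lipid storage and lipolysis genes tested. Adipocyte markers lay above 0 with them, 10 of 10 tested with a median of 0.31 and none called, and summed to 4843 and 4753 in CPA/6d, to 8044 and 4755 in CPA/9d and to 1221 and 505 in untreated tumors. The CPA/9d pool with more reads stood apart, as for the fat hormones Adipoq (636 against 298), Lep (126 against 34.3) and Retn (95.9 against 40.2), and the part of fat in these results was not tested. Of 2 erythroid markers tested, Alas2, the first enzyme of heme synthesis in red cells, rose by 1.26 ± 0.22, and Epb4.2, a protein of the red cell membrane, was at 36.4 and 43.5 against 36.5 and 32.8 (-0.20 ± 0.24, not called). Beta-s, a beta globin outside that list and named after its value was seen, rose by 1.17 ± 0.11. Of 14 endothelial markers tested 1 was called, the tight junction protein Cldn5, at 86.8 and 82.8 against 140 and 128, and its p was between 0.00114 and 0.00357 without the CPA/6d pool with more reads, the CPA/6d pool with fewer reads or the CPA/9d pool with more reads.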

How the data were processed

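Reads of 6 GL261(scid) libraries were used, 4 of CPA-treated and 2 of untreated tumors. The authors mapped reads with TopHat2 2.0.13 to mm9, counted them over RefSeq genes and ran DESeq, and the deposited signal is the authors' mean over 2 pools of reads divided by a size factor. The labels call these libraries unstranded, while their protocol says strand-specific, so genes that overlap on opposite strands may share reads. Fold changes and p-values of the authors in the tables were not used. Each mean was solved for the whole reads of its 2 pools, jointly over the 2 tables in which a group stands, and every gene with reads (17961 to 18977 a group) had a single solution. Which pool number each solution belongs to is not shown by it.

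TMM factors (30% of ratios and 5% of levels trimmed) were computed, and log2 of normalized reads plus 1 was fitted with limma 3.58.1 (R 4.3.3, trended variance) on the 4 libraries. Genes needed 10 reads at the median depth in 2 libraries and 15 in all. Called means a fold over 1.5 and p under 0.001; adjusted p follow Benjamini-Hochberg, taken across the genes tested. Both steps were tested on simulated data. A count of 0 allows up to 3 reads. Members, gene lists and the rule for named genes were chosen with earlier results of these data known. That rule takes the 15 largest and 15 smallest called changes with a mean of at least 50 in the higher group, the called members of each list (or the 2 of smallest p), all clock, X-inactivation and Y-linked genes, and genes the study names for this pair. A few genes that this rule or the call takes are not reported here. Coordinates are from GENCODE vM1 (NCBIM37, the same build as mm9). Promoter sequences are from RefSeq (GRCm38.p6). Alternatives are given at the end.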

Additional observations from a re-analysis of the deposited data

How the results depend on the processing

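With all 6 GL261(scid) libraries in the fit, 103 genes were higher, 19 lower and 122 different in all, in place of 249, 18 and 267, and 118 of the 267 were called in the same direction. With a fold over 2 the counts were 110, 3 and 113. Requiring an adjusted p below 0.05 instead gave 319 and 23. Leaving out each pool in turn gave 232 to 358 higher genes, 22 to 83 lower and 260 to 411 in all, where a lone pool is assumed to vary like the other group. Median-of-ratios or total-read scaling, 10 added to the reads, no filter, a mean of at least 50 and voom gave 227 to 275 higher and 15 to 21 lower genes. The median log2 fold change of all genes was -0.006 by median-of-ratios and -0.033 by total-read scaling. Of 99 called genes named in the text none changed direction in an alternative that tested it, 44 lost their call with all 6 libraries, 9 under voom and 5 to 18 without a single pool. Some genes that were not called changed sign when single pools were left out: Kdm5d ran from -0.0321 (without the CPA/9d pool with more reads) to 0.36, Adipoq from -0.35 and Lep from -0.50 (both without that pool) to 0.74 and 1.34, and Col1a1 from -0.0758 (without the CPA/6d pool with fewer reads) to 0.25. No paired analysis was possible because the recovered reads cannot be tied to pool numbers.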
